A study of Mus musculus with 2 samples.

Results

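A group of 10 surface receptors and ligands that restrain or license immune activation were followed at the transcript level in sorted spinal microglia of control and 4E-BP1–cKO mice. They were chosen by gene symbol out of the 32285 genes counted, and each was found in both libraries. By role they comprised the receptors with immunoreceptor tyrosine-based inhibitory motifs (ITIMs) Sirpa and Lair1, the sialic acid-binding lectins (Siglecs) Cd33 and Siglech, the checkpoint molecules Vsir, Havcr2 and Lag3, the selectin ligand Selplg, and the activation-linked Cd83 and Cd86. The group was mixed in function, since Siglech signals through an activating adaptor and Cd86 is a co-stimulatory ligand.

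ITIM receptors recruit the phosphatases SHP-1, SHP-2 and SHIP1 when they meet their ligand, and so damp signalling from activating receptors in the same cell. Microglia carry many such receptors, whose ligands (CD47, sialic acids, collagens) lie on neurons, glia and matrix. Checkpoint molecules are best known from T cells, while co-stimulatory ligands on antigen-presenting cells act in the opposite sense. Transcript counts do not give surface protein, glycosylation or signalling, none of which was measured here.

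The control library came from mice labelled WT and given as Eif4ebp1 fl/fl in the study. The 4E-BP1–cKO library came from Eif4ebp1 fl/fl:TMEM119 CreERT2 mice, in which a Cre recombinase under the microglial Tmem119 promoter deletes 4E-BP1, a repressor of cap-dependent translation, after 4-hydroxytamoxifen. Both groups were male, 8 to 10 weeks old, and had received 4-hydroxytamoxifen from postnatal day 4 to 9. Lumbar spinal cord was digested at 37 °C, and cells of the gate CD45lo CD11Bhi CX3CR1hi were sorted and captured in droplets, with RNA read from the 3′ end and counted as unique molecular identifiers (UMIs). There was 1 library per genotype and the number of mice behind each is not named, so genotype and library cannot be told apart and no test between genotypes was possible. All intervals below are 95% and cover counting error only.

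The control library held 1147 kept cells with 4803562 UMIs (median 3053 per cell), and the 4E-BP1–cKO library 445 cells with 1734332 UMIs (median 2776). At least 3 of 10 microglial markers, of which Siglech is one, were detected in 1086 control and 408 4E-BP1–cKO cells. Each of 11 lists for other cell types reached 3 markers in 0 to 4 cells of a library. For plasmacytoid dendritic cells and neutrophils, too many markers were at 0 for 3 to be reached in either library. The same held for monocytes and endothelial cells in the 4E-BP1–cKO library. Single markers reached up to 10.2% of control and 14.8% of 4E-BP1–cKO cells for oligodendrocytes, and 9.50% and 6.07% for endothelial cells. The early genes (12 genes such as Fos, Jun and Egr1) took 1.66% of UMIs in the control and 2.17% in the 4E-BP1–cKO library, 10 NF-κB target genes took 0.915% and 1.34%, and ribosomal protein genes took 5.38% and 6.36%. All 3 shares were higher in the 4E-BP1–cKO library, and their part in the contrasts between the libraries was not tested. Over 25000 UMIs were held by 3 cells, 2 of them 4E-BP1–cKO and 1 control.

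The 10 genes together took 27104 UMIs (0.564%) of the control and 10331 UMIs (0.596%) of the 4E-BP1–cKO library. All 10 were readily detected in both, none differed by more than 1.5-fold, and their order by level was nearly the same. Levels are UMIs scaled to the library's total as counts per 1000000 UMIs (CPM). Reads came from the 3′ end and each molecule was counted once, so levels of different genes were set side by side on this scale. Gene lengths ran from 8076 bases (Lag3) to 97203 bases (Cd86), and whether length has a part in the levels was not tested.

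**Figure D1:**
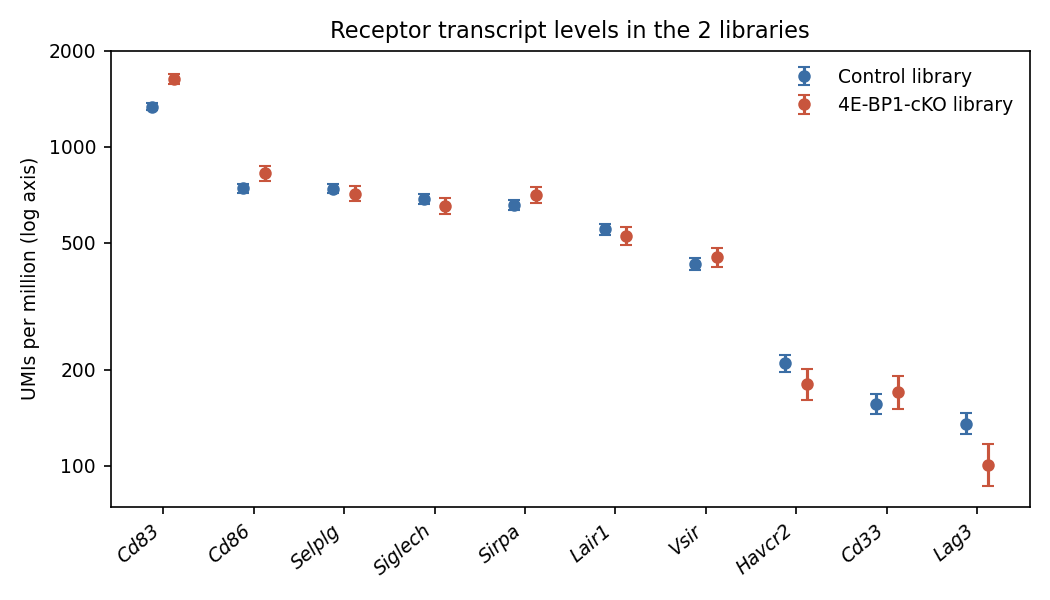
CPM (log axis) of the 10 genes in the control and the 4E-BP1–cKO library, with 95% exact Poisson intervals for counting error. Cd83 was highest in both libraries, and Lag3, at 136 and 101 CPM, was lowest in both.

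Sirpa encodes the ITIM receptor for the "don't eat me" ligand CD47 and lies on chromosome 2 (GRCm38, 2:129591042-129632228). It stood at 659 CPM in the control and 707 CPM in the 4E-BP1–cKO library, and 74.7% and 70.8% of cells held a UMI of it. Its log2 ratio (4E-BP1–cKO over control) was 0.10, with an interval of the ratio from 1.004 to 1.15. Sirpa has close relatives in the Sirpb family, so that its count is uncertain to the extent that reads could not be placed. Lair1, the ITIM receptor for collagens (7:4007073-4073567), stood at 552 and 524 CPM and was detected in 70.4% and 66.5% of cells. Its ratio interval, 0.880 to 1.02, included 1.

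Siglech, a Siglec that pairs with the adaptor DAP12 and marks microglia and plasmacytoid dendritic cells (7:55768154-55779448), stood at 686 and 654 CPM, with a UMI in 67.9% and 65.6% of cells. Of 5 plasmacytoid dendritic cell markers other than Siglech, 3 were at 0 in each library, so no cell could hold 3 of them. The others together had 114 UMIs in the control and 37 UMIs in the 4E-BP1–cKO library. The most frequent marker was detected in 4.45% and 3.37% of cells. Whether such cells were present was not tested. Cd33, whose human counterpart is a risk gene for Alzheimer disease (7:43527399-43537424), was among the 3 lowest of the group at 157 and 170 CPM and was detected in 38.0% and 38.4% of cells. The ratio intervals of both Siglecs included 1, at 0.891 to 1.02 for Siglech and 0.945 to 1.24 for Cd33.

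Among the checkpoint molecules, Vsir, which encodes VISTA (10:60346851-60430294), stood at 430 CPM in the control and 450 CPM in the 4E-BP1–cKO library, a difference within counting error (interval of the ratio 0.963 to 1.14). Havcr2, which encodes TIM-3, a receptor for galectin-9 and phosphatidylserine (11:46454931-46481255), stood at 210 and 180 CPM, with a UMI in 44.5% and 38.4% of cells. Lag3, an MHC class II-binding receptor (6:124904359-124912434), stood at 136 and 101 CPM, with a UMI in 34.8% and 26.1% of cells. Both were lower in the 4E-BP1–cKO library, Havcr2 with a log2 ratio of -0.21 (ratio 0.756 to 0.978) and Lag3 with -0.42 (ratio 0.626 to 0.880).

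Selplg, which encodes P-selectin glycoprotein ligand 1, also a ligand of VISTA (5:113817798-113832528), stood at 740 and 714 CPM and was detected in 70.0% and 70.6% of cells, with a ratio interval of 0.904 to 1.03. It lies 17401 bases from Tmem119, the gene whose promoter drives the Cre. Tmem119 stood at 433 CPM in the control and 142 CPM in the 4E-BP1–cKO library, and a part of this locus in the Selplg contrast was not tested. Cd83, an immunoglobulin superfamily protein of activated antigen-presenting cells (13:43785112-43803133), was the most abundant of the group at 1334 and 1631 CPM, in 79.8% and 78.4% of cells. Cd86, the ligand of CD28 and CTLA-4 (16:36568956-36666158), stood at 740 and 826 CPM, in 68.0% and 66.5% of cells. Both were higher in the 4E-BP1–cKO library, Cd83 with a log2 ratio of 0.29 (ratio 1.17 to 1.28) and Cd86 with 0.16 (ratio 1.05 to 1.19). Without the 3 cells of over 25000 UMIs, an alternative chosen after seeing the data, these ratios were 0.26 and 0.09.

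Across the group, 5 genes were higher and 5 lower in the 4E-BP1–cKO library, and the ratio interval excluded 1 for 5 of them (Cd83, Cd86, Sirpa, Havcr2 and Lag3), beside 33.6% of genes with at least 200 UMIs. Without the 3 cells of over 25000 UMIs it excluded 1 for 4, as the interval of Sirpa was then 0.985 to 1.13. The interval of Cd86, counted among the 4, was then 1.0007 to 1.14 and barely excluded 1. Past 1.5-fold in either direction lay 0 of the 10, beside 15.6% of the 11784 genes with at least 20 UMIs and 4.4% of the 4887 genes with at least 200 UMIs. The median log2 ratio was 0.0069 for the 10 genes and -0.0546 for all genes with at least 20 UMIs. Of the 10, 3 (Cd83, Havcr2 and Lag3) lay past a log2 ratio of 0.2 in size, beside 45.7% of genes with at least 200 UMIs, and 1 (Lag3) past 0.4, beside 14.5%. Past each of these limits the share of the 10 was below that of genes in general, while intervals that excluded 1 were more frequent among the 10. The backgrounds were not matched to the 10 genes for UMIs, and counting error widens the ratios of sparser genes. No ranking against genes in general was therefore read from them. These values compare 2 libraries and have no replicate check.

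In order of level, Cd83, Cd86 and Selplg came in places 1, 2 and 3 in both libraries. Neighbours whose intervals overlapped were Cd86 and Selplg, Siglech and Sirpa, and Cd33 and Lag3 in the control library. In the 4E-BP1–cKO library they were Selplg and Sirpa, Sirpa and Siglech, and Havcr2 and Cd33. Siglech and Sirpa exchanged places 4 and 5 between the libraries, and Havcr2, Cd33 and Lag3 filled the last 3 places in both.

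Detection depended on depth, so cells were also thinned to 1000 UMIs each, and the 108 control and 87 4E-BP1–cKO cells below that depth dropped out. At equal depth Cd83 was detected in 60.3% of control and 63.4% of 4E-BP1–cKO cells, Cd86 in 40.4% and 46.9%, and Selplg in 43.9% and 50.3%. For Cd83 and Cd86 this was the direction of their CPM, but for Selplg the share and the CPM went opposite ways and no order was read from it. Havcr2 was detected in 18.2% and 14.8% of thinned cells and Lag3 in 12.03% and 9.50%, the same direction as their CPM. No cells free of these transcripts by type were present in number to set the background from free RNA. In the 13 cells with at least 3 markers of another cell type (median 4076 UMIs, beside 2973 in the other cells), each of the 10 genes was detected in 3 to 7, so these cells gave no floor.

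Cd83 and Cd86 had the highest ratios of variance to mean between cells. In thinned cells the variance of the count was 2.13 times its mean for Cd83 in the control and 1.73 times in the 4E-BP1–cKO library, and 2.04 and 1.95 times for Cd86, where counting alone gives a ratio near 1. For the other 8 genes it ran from 0.997 (Vsir, 4E-BP1–cKO) to 1.38 (Lair1, control). This ratio can rise with the level of a gene. Cd83 and Cd86 also had the highest means in thinned cells, at 1.32 and 0.751 UMIs in the control. No order of variation between cells was therefore read from it. On all UMIs, where low counts and cell depth also enter, for Lag3 the 10% of cells with the most UMIs of it held 52.6% of its UMIs in the control and 58.9% in the 4E-BP1–cKO library, while for Lair1 it held 35.3% and 39.3%. The most Cd83 UMIs in a cell were 70 in the control (a cell of 9876 UMIs) and 107 in the 4E-BP1–cKO library (a cell of 35216 UMIs). Cd86 reached 5.74% of 1 control cell's RNA, 35 of 610 UMIs, the highest share of any of the 10 genes in any cell.

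Cells were grouped into 8 clusters without using the 10 genes or 66 related genes, so that levels across clusters were not set by the clustering itself. Clusters carry numbers only, by size. Clusters 1, 2, 7 and 8 had a median ribosomal protein share of 1.21% to 1.33% of UMIs, and clusters 3 to 6 of 4.38% to 11.7%. Among the leading genes of cluster 3 were Fos, Ccl3 and Hspa1a (median early-gene share 2.74%), of cluster 4 Cxcl2, Mt1 and Apoe, and of cluster 6 Clec1b. Cluster 5 was shallow, at a median of 763 UMIs, and had Mbp and Cxcl10 among its leading genes. Each cluster held at least 21 cells of each library, cluster 6 being 10.7% of control and 8.09% of 4E-BP1–cKO cells and cluster 3 12.9% and 18.9%.

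With both libraries summed, cluster 6 was the highest for 7 of the 10 genes, namely Sirpa, Lair1, Siglech, Cd33, Vsir, Havcr2 and Selplg. The share of all genes highest in cluster 6 was not counted, so the 7 of 10 was not read as a trait of these genes. Some related genes, such as Cd48, Slamf9 and Cd47, were also highest in cluster 6, while others, such as Tyrobp and Cd84, were not. For Sirpa, Lair1, Cd33, Vsir and Havcr2 the interval in cluster 6 overlapped that of another cluster. Lair1 stood at 738 CPM there and 727 CPM in cluster 1, and Havcr2 at 266 and 253 CPM. In single libraries, Havcr2 was highest in cluster 1 of the control and Sirpa in cluster 8 of the 4E-BP1–cKO library. In the sum of both libraries Lag3 was highest in cluster 7, Cd86 in cluster 2 and Cd83 in cluster 8. In the 4E-BP1–cKO library alone Lag3 was highest in cluster 2 (172 CPM, beside 159 CPM in cluster 7, with overlapping intervals). Cd86 was highest there in cluster 8 (1601 CPM, beside 1339 CPM in cluster 2). The steepest gradients were those of Selplg and Siglech. Selplg ran from 347 CPM in cluster 8 to 1125 CPM in cluster 6 (3.18-fold on the scale of CPM + 10), and every cluster with the higher ribosomal protein share stood above every cluster with the lower share. Siglech ran from 330 CPM in cluster 2 to 1022 CPM in cluster 6 (3.03-fold), and Vsir from 242 to 624 CPM between the same clusters (2.52-fold). These 3 genes kept cluster 6 as the highest in each library on its own, as did Cd33 and Lair1. For Lair1 the control values of clusters 6 and 1 were nearly equal, at 735 and 733 CPM.

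Cd83 and Cd86 followed other clusters. Cd83 ran from 976 CPM in cluster 6 to 2127 CPM in cluster 8 (2.17-fold), with 1873 CPM in cluster 5 and 1648 CPM in cluster 2. Cd86 was also lowest in cluster 6, at 597 CPM, and reached 1188 CPM in cluster 2 and 1087 CPM in cluster 8 (1.97-fold between the highest and lowest). Lag3 ran from 96.2 CPM in cluster 1 to 217 CPM in cluster 7 (2.14-fold) and Cd33 from 103 CPM in cluster 8 to 221 CPM in cluster 6 (2.04-fold). The flattest were Sirpa (1.87-fold), Havcr2 (1.76-fold) and Lair1 (1.70-fold). In all, 6 of the 10 genes had a range over 2-fold, beside 72.4% of genes with at least 200 UMIs, and the median log2 range was 1.06 beside 1.26 for those genes. The count moved with the resolution, to 3 of 10 in 6 coarser clusters and 10 of 10 in 14 finer ones. At the main resolution both values of the receptors were below those of genes in general. That background was not matched for UMIs, and counting error widens the range of sparser genes, so no ranking was read from it.

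**Figure D2:**
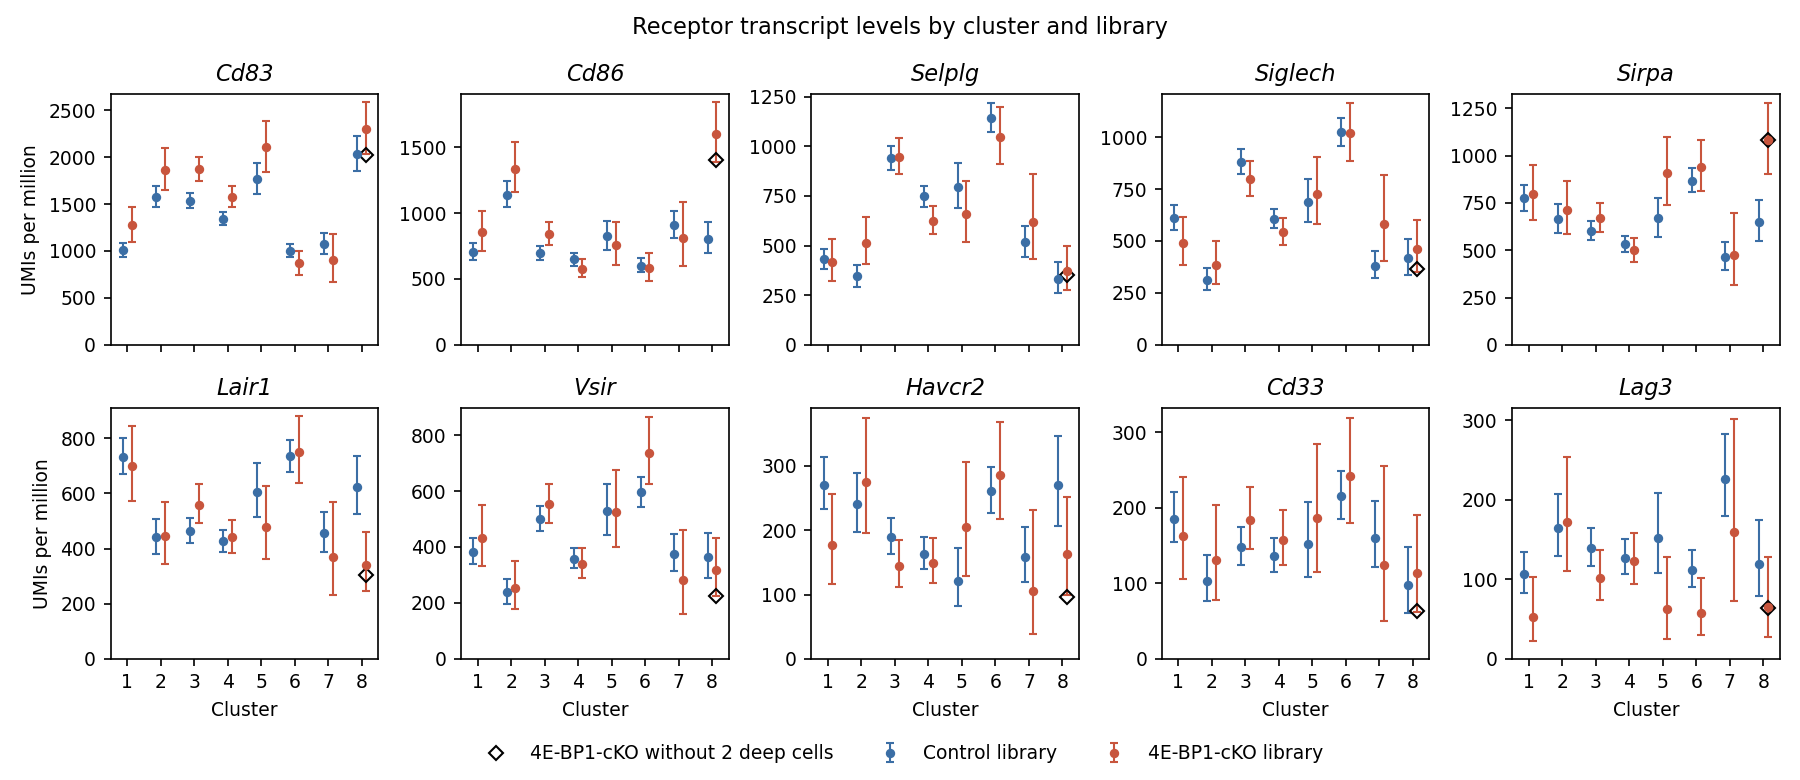
CPM of each gene in the 8 clusters, separately in the control and the 4E-BP1–cKO library, with 95% exact Poisson intervals. The open diamonds give cluster 8 of the 4E-BP1–cKO library without its 2 cells of over 25000 UMIs. Selplg and Siglech peaked in cluster 6, while Cd83 and Cd86 were lowest or nearly lowest there.

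Within clusters, no gene of the group kept one direction between the libraries in all 8 clusters, though some did in most. Lag3 was lower in the 4E-BP1–cKO library in 7 of 8 clusters, with log2 ratios from -1.17 in cluster 5 to 0.05 in cluster 2, and the interval excluded 1 in clusters 5 and 6. Without the control cell of over 25000 UMIs in cluster 5, the value there was -1.06 and its interval, 0.165 to 1.02, included 1. Cd83 was higher in 6 of 8, the intervals of 5 of them excluded 1 (clusters 1 to 5, log2 ratios 0.23 to 0.33), and it was lower in clusters 6 and 7. Sirpa was higher in 7 of 8, from 668 to 906 CPM in cluster 5 and from 651 to 1081 CPM in cluster 8. Havcr2 was lower in 5 of 8, with log2 ratios from -0.70 to 0.71. Averaged with equal weight over clusters, the log2 ratio of Cd83 was 0.13 and that of Lag3 -0.63, past 1.5-fold. For Lag3 this average gave full weight to clusters 1, 5, 7 and 8, which held 8, 7, 9 and 8 UMIs of it in 4E-BP1–cKO cells.

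Cluster 8 gave the largest contrasts in Cd86, at 806 CPM in the control and 1601 CPM in the 4E-BP1–cKO library (log2 ratio 0.98), and in Lair1, at 625 and 341 CPM (-0.85). Only 29 4E-BP1–cKO cells lay there, and 2 cells of 35216 and 25056 UMIs held 28.6% and 20.4% of their UMIs. Without these 2 cells Cd86 stood at 1401 CPM (log2 ratio 0.79), Sirpa at 1083 CPM (0.72) and Lair1 at 303 CPM (-1.02). Havcr2 in cluster 8 moved from a log2 ratio of -0.70 to -1.41 when they were left out (6 UMIs against 61), Vsir from -0.19 to -0.68, and Cd33 from 0.20 to -0.54. Siglech turned from 0.15 to -0.18 and Selplg went from 0.17 to 0.07. Cd83 there went from 0.18 to -0.01. For Vsir, Cd33, Siglech, Selplg and Cd83 the ratio interval in cluster 8 included 1 with and without these 2 cells. No direction was therefore read for those genes. For Havcr2 the interval was 0.344 to 1.01 with the 2 cells and 0.125 to 0.815 without them. For Cd86, Sirpa and Lair1 it excluded 1 in both settings.

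Cells were next ordered within each library by the share of UMIs on the early genes, which are known to respond quickly to stimulation and to tissue dissociation. The 1 in 3 cells with the highest share (high cells, 382 control and 148 4E-BP1–cKO) had a median share of 2.31% and 3.11%, and the 1 in 3 with the lowest (low cells) 0.644% and 0.814%. These are ranges of a continuous share, not cell types, and the high cells were also deeper (median 4187 and 4322 UMIs, beside 2778 and 1846) and richer in ribosomal protein UMIs (4.93% and 6.42%, beside 1.70% and 2.02%). A gene was counted as called when it was past 1.5-fold the same way in both libraries.

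Cd83 was the 1 gene of the 10 called, beside 8.61% of genes with at least 200 UMIs (4.03% higher and 4.58% lower). It stood at 907 CPM in low and 1546 CPM in high cells of the control library (log2 ratio 0.76), and at 1039 and 1809 CPM in the 4E-BP1–cKO library (0.79). In cells thinned to 1000 UMIs the log2 ratios were 0.73 and 0.44, the same direction but no longer past 1.5-fold in both. Havcr2 went the other way without a call, from 256 CPM in low to 173 CPM in high control cells (-0.54) and from 240 to 145 CPM in 4E-BP1–cKO cells (-0.69). Sirpa, Cd33 and Lair1 were likewise lower in high cells of both libraries, with log2 ratios from -0.38 to -0.27, and Selplg was higher in both (0.23 and 0.30). Among all genes the median was -0.105 and -0.0996.

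Because ribosomal protein share moved with the early-gene share, the same split was also made within cells of at least 3% and within cells under 3% ribosomal protein UMIs. Cd83 was higher in the high cells in each of these settings, with log2 ratios of 0.98 and 0.57 (control and 4E-BP1–cKO) in the ribosomal-rich and 0.58 and 0.60 in the ribosomal-poor cells, although not past 1.5-fold in all, so that it was not called. Of the 10 genes 0 were called in the ribosomal-rich cells (background 5.87%, of which 3.64% higher and 2.23% lower). In the ribosomal-poor cells 1 was called, Cd33, as lower (background 6.2%, of which 3.48% higher and 2.72% lower), at 191 CPM in low and 108 CPM in high control cells (-0.77) and 181 and 78.9 CPM in 4E-BP1–cKO cells (-1.10). The 4E-BP1–cKO value of Cd33 rested on 26 UMIs in low and 12 UMIs in high cells (interval of the ratio 0.201 to 0.897). Selplg turned to -0.21 in ribosomal-rich control cells, so its direction with the early genes did not hold there. Havcr2 was -0.39 and -0.39 in ribosomal-rich and -0.18 and -0.12 in ribosomal-poor cells, and its interval excluded 1 only in ribosomal-rich control cells. Sirpa was -0.18 and -0.26 in the rich and -0.33 and -0.01 in the poor cells. Lair1 stayed lower in the high cells throughout, from -0.48 to -0.22. Cd33 was -0.38 and -0.09 in the rich cells.

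Cells of at least 3% ribosomal protein UMIs (498 control, 238 4E-BP1–cKO) were then compared with cells under 3% (649 and 207), 105 cells lying between 2.5% and 3.5%. Selplg was the 1 gene called of the 10, beside 25.1% of genes (14.2% higher and 10.9% lower), at 455 CPM in poor and 913 CPM in rich control cells (0.99) and at 469 and 821 CPM in 4E-BP1–cKO cells (0.79). With the limit at 5% its log2 ratios were 0.59 and 0.30, and it was not called. Siglech had the next largest upward contrast, from 495 to 801 CPM in control (0.68) and from 539 to 704 CPM in 4E-BP1–cKO cells (0.38). Cd86 was lower in ribosomal-rich cells, from 874 to 659 CPM in control (-0.40) and from 1065 to 721 CPM in 4E-BP1–cKO cells (-0.56). Cd83 hardly moved with this share, at 0.10 and 0.03. The median over all genes was -0.167 and -0.182, and the rich cells were deeper (median 5537 and 4700 UMIs, beside 2353 and 1934).

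**Figure D3:**
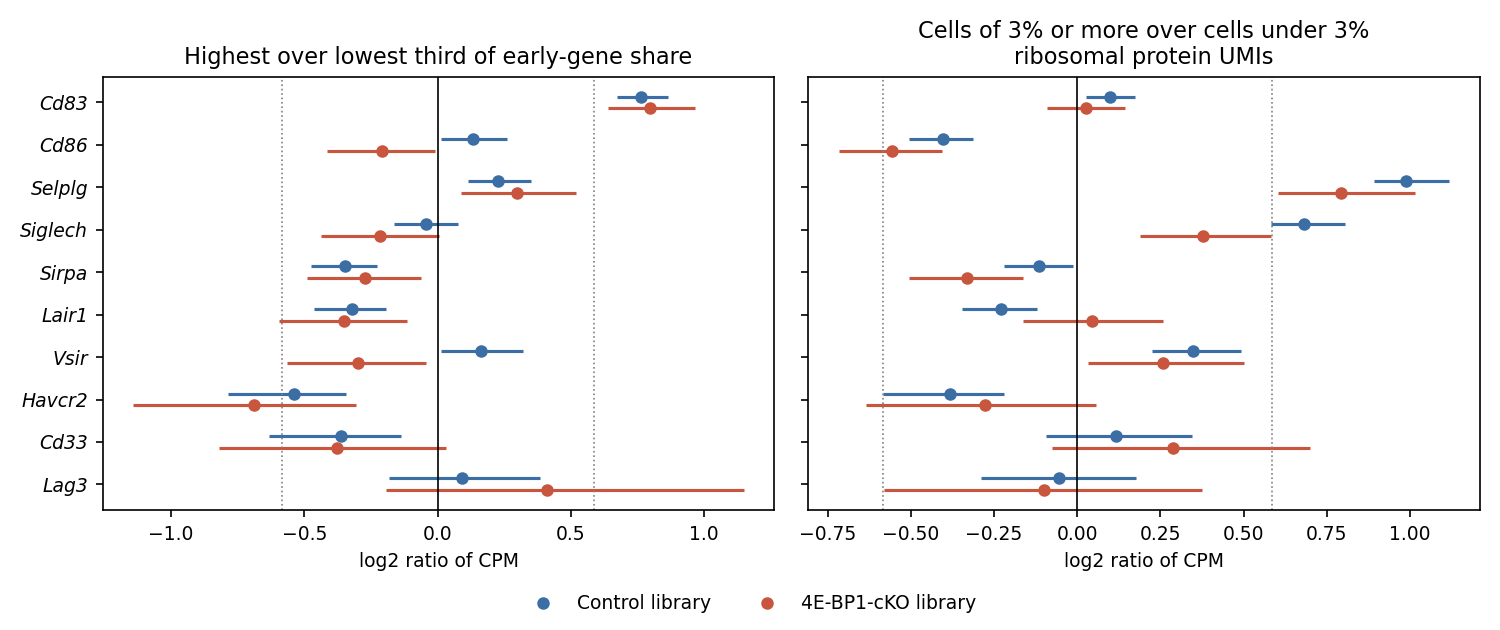
log2 ratio of CPM between cells of high and low early-gene share (left) and between cells of at least 3% and under 3% ribosomal protein UMIs (right), in each library, with 95% counting intervals and dotted lines at 1.5-fold. Cd83 lay past the line in both libraries on the left, and Selplg on the right.

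Co-detection was counted in thinned cells and set against the number of cells that the shares of each pair give within each cluster and library. All 45 pairs had at least 10 expected cells. Pairs over 1.2 times their expectation numbered 0, and 1 pair, Cd33 with Lag3, lay under 1/1.2 of expectation, in 17 cells where 22.2 were expected. The median of observed over expected was 1.003. In both libraries 10 pairs were above and 11 below expectation.

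At the upper end stood Cd33 with Vsir, in 82 cells where 70.5 were expected (1.16; 1.10 in control and 1.32 in 4E-BP1–cKO cells), and Havcr2 with Lag3, in 31 where 26.9 were expected (1.15). Selplg was found with Vsir, its binding partner as protein, in 263 cells where 234 were expected (1.12; 1.13 and 1.12 in the 2 libraries). Lair1 with Cd86 was below expectation in both libraries, in 198 cells where 220 were expected (0.90; 0.90 and 0.91). Cd83 with Cd86 was close to expectation, in 375 cells where 362 were expected. For each pair named above, the counting interval of the observed share of cells in each library held the expected share. The expectation takes the share of each gene as given, while these intervals do not. They are therefore too wide to decide whether a pair departs from its expectation, and no conclusion was drawn from them. Over all pairs, observed over expected ran from 0.76 to 1.16, which gives the size of the departures only. Whether detection of one receptor is independent of another within a cluster was not tested. On all UMIs, the share of cells with both genes ran from 16.2% for Cd33 with Lag3 to 61.3% for Sirpa with Cd83.

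**Figure D4:**
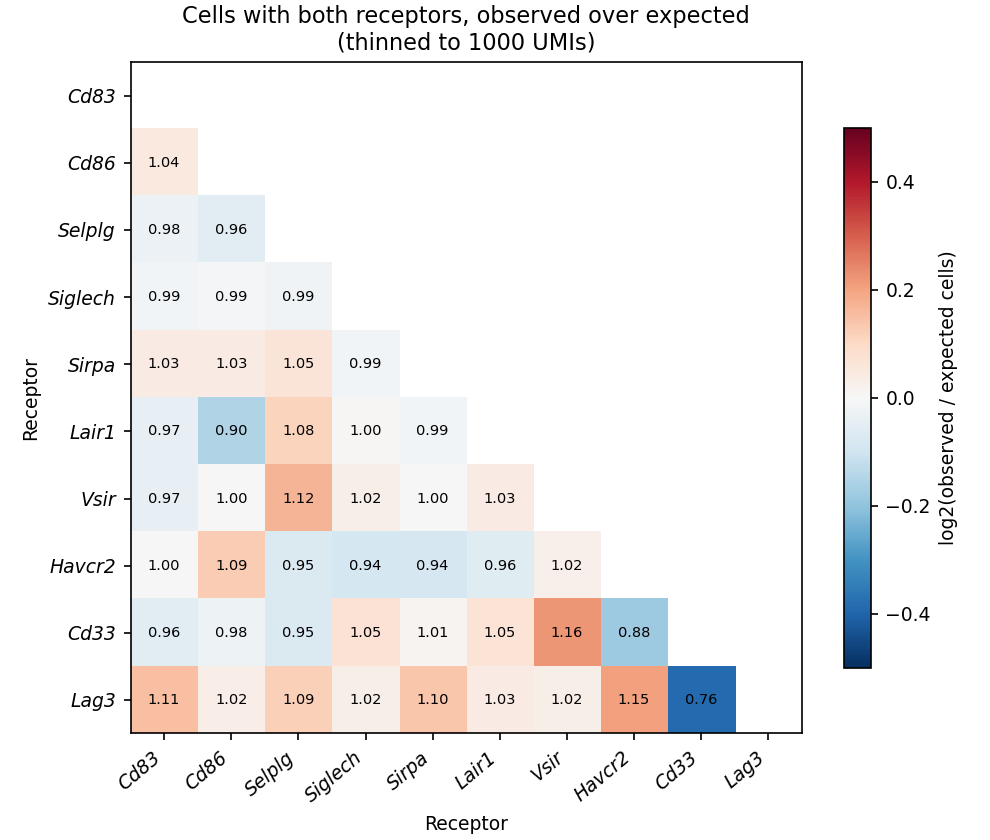
Observed over expected cells for each of the 45 gene pairs in cells thinned to 1000 UMIs, expected from the shares in each cluster and library. Values ran from 0.76 (Cd33 with Lag3) to 1.16 (Cd33 with Vsir).

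Counted per cell on all UMIs, at least 1 of the 10 genes was detected in 99.6% of control and 98.2% of 4E-BP1–cKO cells, the median was 6 in both, and all 10 were detected in 97 (8.46%) and 27 (6.07%) cells. At 1000 UMIs the mean was 3.47 in control and 3.53 in 4E-BP1–cKO cells. At least 5 genes were detected in 23.3% (20.8 to 26.0) of control and 22.9% (18.7 to 27.6) of 4E-BP1–cKO cells, a difference of -0.387 percentage points with an interval from -5.42 to 4.96. Without thinning the shares were 71.8% and 66.1%, a difference of -5.68 points that was not seen after thinning. Thinning also left out the 108 control and 87 4E-BP1–cKO cells under 1000 UMIs, so these differences cover different cells as well as different depths. By cluster, the mean at 1000 UMIs was highest in cluster 6, at 4.01 ± 1.51 (SD over 123 cells) in control and 4.28 ± 1.30 (36 cells) in 4E-BP1–cKO cells, and lowest in cluster 7 of the control (3.02 ± 1.53) and cluster 8 of the 4E-BP1–cKO library (2.87 ± 1.22). For cluster 2 it was 3.08 in control and 3.65 in 4E-BP1–cKO cells.

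**Figure D5:**
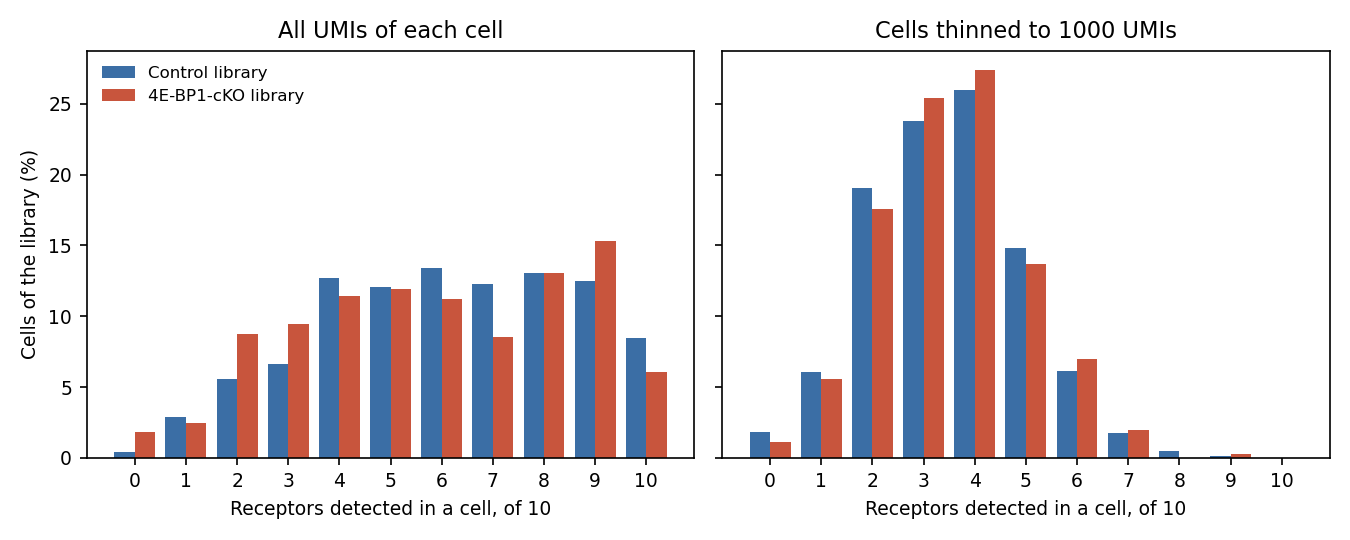
Share of cells by the number of the 10 genes detected, on all UMIs and after thinning to 1000 UMIs, in each library. The means were 6.13 and 5.83 on all UMIs, and 3.47 and 3.53 at equal depth.

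Across the 16 sums of cluster and library, the genes fell into partly shared patterns. Siglech followed Selplg (Pearson r = 0.88) and Vsir (0.86), and Cd33 followed Vsir (0.81). Sirpa ran against Lag3 (-0.76) and Siglech against Cd86 (-0.67), while Cd83 and Cd86 were only moderately alike (0.52). The 16 points share libraries, depth and ribosomal protein share, so these are descriptions.

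The genes most like each receptor over the same 16 points were picked as the 3 highest correlations among genes with at least 200 UMIs. Among those of Siglech were Gpr34 (0.930) and P2ry13 (0.924), and Vsir was most like Lgmn (0.936), Gpr34 (0.936) and Tmem59 (0.932). Selplg was most like Olfml3 (0.955), Laptm5 (0.951) and C1qa (0.9498). Of these genes, Gpr34, P2ry13 and Olfml3, are widely used as markers of homeostatic microglia. Cd83 was most like Tnfaip3 (0.915), a feedback inhibitor of NF-κB, with Rab20 (0.898) and Tgif1 (0.880), and Cd86 most like Zfp655 (0.876), Runx1 (0.867) and Dleu2 (0.864).

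The others had weaker or less familiar company. Lair1 was most like Tnrc6a (0.912), Cmklr1 (0.872) and Mfap3 (0.869), Havcr2 most like Eya3 (0.894), Immp2l (0.857) and the kinase gene Lyn (0.854), and Cd33 most like Cttnbp2nl (0.939), Gpr155 (0.876) and Pigk (0.850). Lag3 was most like Stat6 (0.845), Rhoq (0.827) and Pabpc4 (0.826), and Sirpa most like Senp6 (0.821), Oxct1 (0.820) and Usp47 (0.817). Lag3 and Sirpa had the lowest best matches of the 10 genes.

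Partners and relatives were taken from a list of 67 genes, of which 66 were counted in the files, 45 had at least 20 UMIs, 28 at least 200, and 6 none. Among ligands of the receptors, Cd47 (the Sirpa ligand) stood at 92.4 CPM in the control and 94.6 CPM in the 4E-BP1–cKO library, and Lgals9 (galectin-9, bound by TIM-3) at 139 and 138 CPM. Fgl1, a soluble LAG-3 ligand, had 0 UMIs in both, which allows up to about 3 UMIs per library as a one-sided limit. Of the selectins that bind PSGL-1, Selp had 1 and 0 UMIs and Sele 0 and 0.

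The signalling partners were present. Inpp5d (SHIP1) stood at 977 and 867 CPM, Tyrobp (DAP12, the Siglech adaptor) at 806 and 861 CPM, Fcer1g at 688 and 815 CPM, Ptpn6 (SHP-1) at 95.3 and 119 CPM and Ptpn11 (SHP-2) at 36.4 and 29.4 CPM. The kinases and adaptors Syk, Csk, Grb2, Sla, Fyb, Skap2 and Ptk2b ranged from 65.2 CPM (Csk) to 673 CPM (Fyb) in the control library. Of the enzymes that modify PSGL-1, B4galt1 stood at 392 and 408 CPM, Gcnt1 at 132 and 109 CPM, Tpst2 at 123 and 131 CPM and St3gal4 at 39.8 and 36.3 CPM, whereas Fut7, needed for selectin-binding glycans in leukocytes, had 2 and 0 UMIs.

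Of the other inhibitory and checkpoint genes, Cd84 stood at 324 and 387 CPM, above Havcr2, Cd33 and Lag3. Cd300a stood at 125 and 132 CPM, and Lilrb4a, Clec4a2, Slamf9 and Cd48 between 34.6 and 52.5 CPM in both libraries. Cd274 (PD-L1) stood at 51.6 and 60.0 CPM, Cd80, the other CD28 ligand, at 43.5 and 47.9 CPM beside the 740 and 826 CPM of Cd86, and Icosl at 39.6 and 53.1 CPM. Of the classical T cell checkpoints, Pdcd1 was sparse, with 69 and 30 UMIs in 4.27% and 5.84% of cells. Near the detection limit were Ctla4 (2 and 1 UMIs), Tigit (4 and 2) and Btla (8 and 3). Havcr2 had 1007 and 313 UMIs and Lag3 652 and 175.

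Of the 45 related genes with at least 20 UMIs, 4 were over 1.5-fold higher in the 4E-BP1–cKO library (background 4.32%) and 0 over 1.5-fold lower (background 11.3%), with a median log2 ratio of 0.06. The 4 were Tnfsf9 (4-1BB ligand), at 51.4 and 81.3 CPM, and the sparse Cd5 (23 UMIs in 21 control cells, 27 UMIs in 22 4E-BP1–cKO cells), Lgals3 (37 UMIs in 21 cells, 40 UMIs in 19 cells) and Tnfrsf14 (13 and 8 UMIs). Across clusters 19 of 28 varied over 2-fold (background 72.4%). With the early-gene share Tnfsf9 was called higher (0.69 and 1.52) and Inpp5d lower (-0.69 and -0.76), each 1 of 28 beside backgrounds of 4.03% and 4.58%. With the ribosomal protein share 6 of 28 were called higher (background 14.2%), among them Tyrobp (1.91 and 2.04), Fcer1g (1.89 and 2.17) and Cd47 (0.93 and 0.71), and 1, Inpp5d, was again lower (-0.67 and -0.62, background 10.9%). Siglech and its adaptor gene Tyrobp were thus both higher in ribosomal-rich cells, Tyrobp by the larger ratio.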

How the data were processed

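UMI counts from 2 libraries were analysed, 1 of control and 1 of 4E-BP1–cKO spinal microglia. The authors aligned reads to mm10 with Cell Ranger 8.0.1 and deposited, for the barcodes called as cells, a matrix of raw UMI counts. No source used here names the annotation release. The cells kept had over 300 genes detected and a mitochondrial share below 5%. Doublets stayed in, because the choice of cells did not remove them. Scrublet (scanpy 1.11.5) called 4 control and 11 4E-BP1–cKO barcodes (10.5 and 1.58 expected), and removing them was an alternative. Free RNA was not estimated, since empty droplets were not analysed here.

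Levels are UMIs summed over kept cells per 1000000 (CPM), with exact Poisson intervals and, for ratios, an exact conditional binomial interval. Shares of cells have Clopper-Pearson intervals, and all intervals are at 95%. Log2 ratios used a pseudocount of 1 CPM between libraries and 10 CPM across clusters and cell ranges. Genes needed 20 UMIs over both libraries, or 200 UMIs for clusters and cell ranges. Clusters came from SCTransform (sctransform 0.4.2), RPCA integration, 20 components and resolution 1.4 in Seurat 5.3.0 under R 4.3.3, without the 10 genes and the related genes. Other steps used Python 3.11.15, numpy 2.4.6, scipy 1.17.1 and pandas 2.3.3. Expected co-detection was the product of the shares within each cluster and library, summed. Steps were tested on simulated data with known answers. For levels and ratios, simulated cells of a group differed only by depth and counting error. How the intervals hold under wider variation between cells was not tested. With 1 library per genotype no p-value is given.

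The 10 genes and all lists were chosen with earlier results of these data known. Genes named are the 10, the related genes (with at least 200 UMIs by rule) and the 3 genes most like each of the 10, of which some are not reported here. Leading genes of clusters, and related genes with fewer UMIs that are named, were chosen after their values were seen. Gene positions are from RefSeq on GRCm38. Alternatives were other limits on mitochondrial share, genes, ribosomal share and fold, other totals, TMM factors (edgeR 4.0.16), pseudocounts, thinning depths, resolutions, normalization, single libraries and averages over clusters. Leaving out cells with 3 or more markers of another type, or of over 25000 UMIs, was added after seeing the data.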

Additional observations from a re-analysis of the deposited data

Results flagged for a closer look

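For Vsir and Cd86 the contrast between cells of high and low early-gene share ran opposite ways in the libraries, with counting intervals that excluded a ratio of 1 in each. Vsir went from 415 CPM in low to 465 CPM in high control cells (log2 ratio 0.16) and from 524 to 425 CPM in 4E-BP1–cKO cells (-0.297). Cd86 went from 654 to 718 CPM in control (0.13) and from 850 to 733 CPM in 4E-BP1–cKO cells (-0.210). The difference between the libraries was not tested, as there was 1 library of each. Without the 2 4E-BP1–cKO cells of over 25000 UMIs the value of Cd86 was -0.0321 and that of Vsir -0.319. Within cells of at least 3% ribosomal protein UMIs Vsir was lower in the high cells of both libraries (-0.18 and -0.34), while in cells under 3% the directions were opposite (0.26 in control and -0.996 in 4E-BP1–cKO cells). After thinning to 1000 UMIs Vsir kept the opposite directions (0.36 and -0.13), whereas Cd86 was lower in the high cells of both libraries (-0.23 and -0.36).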

How the results depend on the processing

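No gene of the 10 passed 1.5-fold between the libraries except when log2 ratios were averaged over clusters, where the count was 1 (Lag3) and Siglech (0.06) and Selplg (0.04) changed sign. The number with a range over 2-fold across clusters was 6, and became 3 at resolution 0.8, 10 at resolution 2.0 and 10 with 4E-BP1–cKO cells alone. The 1 call with early-gene share became 0 when all cells were split at the median of the share, with cells of at least 1000 UMIs, after thinning to 1000 UMIs, and in cells of over 3% ribosomal protein UMIs. The 1 call with ribosomal protein share became 0 with a limit of 5%. Pairs over 1.2 times expectation numbered 1 at 500 UMIs, and the difference in cells with 5 or more genes was -5.68 points without thinning. The cause of these moves was not tested. Of the values for single genes, 263 moved by less than their counting error and 37 by more. No paired analysis was possible because there was 1 library per genotype. For the ratios between whole libraries, the counting intervals of the log2 ratio had a median half-width of about 0.10. This covers counting error only, not variation between cells or mice. Within clusters intervals could be far wider, such as 0.154 to 0.922 for the ratio of Lag3 in cluster 5.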
